A study of Mus musculus with 12 samples.

Results

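The transcripts of the mitochondrial calcium uniporter, its partners and the outer membrane channels were measured by RNA-seq of the ventricular wall of mice lacking Sdhaf4, an assembly factor of respiratory complex II (succinate dehydrogenase), in muscle. The genes were chosen by name: Mcu, Smdt1, Micu2, Micu3, Letm1, Ppif, Vdac1, Vdac2 and Vdac3, of which 8 of 9 were found by name among the 43686 rows of the table, and Vdac3 was not analysed here. All 8 were expressed well above the filter on low counts. The 6 WT hearts came from mice with both Sdhaf4 alleles floxed and no Cre (Sdhaf4 fl/fl), and the 6 KO hearts from mice that also carried Ckmm-Cre, which the labels call Sdhaf4-/-. The strain was C57BL/6 by the labels and C57BL/6J by the methods of the study. The labels give an age of 2 months, whereas the text of the study gives a younger age for these hearts. Its animal statement names, for omics work in general, male mice at an age close to that of the labels and at a much younger one. The floxed alleles were thus shared by both groups, whereas only the KO mice carried the transgene. Ckmm-Cre is driven by the muscle creatine kinase promoter and acts in cardiac and skeletal muscle, so other cells of the ventricular wall keep the gene, and no group with Cre alone was included. The labels give no litter or batch for the single hearts, so a difference of litter or batch between the groups cannot be told apart from genotype. The p-values set the difference between the groups against the spread between libraries within them.

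Calcium enters mitochondria in a sequence of steps. It crosses the outer membrane through the voltage-dependent anion channels (VDACs), which also carry ATP, ADP and other small metabolites. It then crosses the inner membrane through the uniporter, a channel formed by MCU with the small subunit EMRE (encoded by Smdt1). Calcium-sensing proteins such as MICU2 and MICU3 regulate the channel on its outer side. LETM1 is an inner membrane protein of cation exchange, and cyclophilin D (encoded by Ppif) is a matrix protein that makes the permeability transition pore open more readily when calcium accumulates. In the heart, this uptake is thought to help match the rate of the dehydrogenases in the matrix to the work of contraction.

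Between 23747014 and 27159228 reads per WT library and between 26542930 and 31393393 per KO library were counted on the rows of the table. Sdhaf4, the targeted gene, lay between 14.3 and 30.3 reads scaled to a common library size (CPM, TMM scaling) in the WT hearts and between 2.25 and 2.73 in the KO hearts. Its log2 fold change of KO over WT was -3.39 with an SE (standard error) of 0.16 and an adjusted p of 1.95e-10 by edgeR's quasi-likelihood fit, which also gives the adjusted p of every gene named here. For comparison, 25.6% of all 17155 rows tested were higher and 25.5% lower in KO at an adjusted p under 0.05, 51.1% in all. Of 10 cardiomyocyte markers, 5 were lower (Myl2, Myl3, Tnni3, Pln and Ryr2) and 1 was higher (Mybpc3) in the KO hearts (60.0% called, near the share of all rows), and their summed level ranged from 55532 to 60742 CPM (scaled by the library total) in WT and from 47653 to 61775 in KO. Of 7 fibroblast markers, 6 were higher and 1 was lower, with summed levels of 2785 to 3307 CPM in WT and 3263 to 4763 in KO. The summed endothelial markers ranged from 2905 to 3337 CPM in WT and from 2759.8 to 3409.8 in KO, with 3 of 7 higher and 1 lower (57.1% called, likewise near that share). Those of smooth muscle and pericytes ranged from 1252 to 1519 and from 1282 to 1788 CPM, and those of macrophages from 152 to 211 and from 156 to 243 CPM, in WT and KO respectively. Lymphocyte markers summed to at most 19.7 CPM in WT and 30.5 in KO, and erythroid markers to 289 to 989 and 592 to 1264. The atrial markers Myl7 and Sln had at most 9 counts in any library, whereas Myl4 and Nppa were higher in KO, and the 4 atrial markers summed to 155 to 421 CPM in WT and 7122 to 15737 in KO. That rise was almost wholly Nppa, with means of 250 CPM (TMM) in WT and 12594 in KO, whereas Myl4 had means of 2.12 and 3.49. The study measured Nppa, as Anp, in left ventricles among genes of hypertrophy and fibrosis, so the sum does not show a shift of atrial cells. Among the skeletal muscle genes, Myh1, Myh4 and Actn3 had at most 69 counts, and Ckm, which cardiomyocytes also express, was lower. In bulk tissue, fewer cells of a type and less RNA per cell cannot be told apart, and the part of these marker shifts in the results that follow was not tested.

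Of the 8 genes, beside the 51.1% of all rows called in either direction, 4 were higher in the KO hearts (Micu2, Micu3, Letm1 and Vdac2), 3 were lower (Ppif, Vdac1 and Smdt1), and Mcu did not pass. The 6 KO and 6 WT hearts did not overlap for 6 of the 8, and they did not overlap in 30.1% of all rows tested. Their median log2 fold change was 0.18, with 0.00 for all rows. The changes were of modest size, from -0.53 for Ppif to 0.62 for Micu3 on the log2 scale, so that none of the 8 passed the stricter call (adjusted p below 0.005 and a change of more than 1 in size on the log2 scale), which 10.2% of all rows passed.

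The level per length was compared first, as FPKM (fragments scaled to gene length and to library size, computed by the authors). Vdac1 was the most abundant of the 8 transcripts, at 1055 ± 25.9 FPKM in WT and 909 ± 65.8 in KO (SD, n = 6). It was followed by Vdac2, at 460.2 ± 23.2 and 556 ± 30.6 FPKM, and by Smdt1, at 249.6 ± 3.96 and 226 ± 8.58. In the WT hearts the next level was that of Ppif, at 68.4 ± 2.84 FPKM, which did not overlap that of Micu2, at 46.7 ± 1.65. Micu2 and Letm1 (41.9 ± 3.45 FPKM) did overlap in WT. In the KO hearts the order of these genes changed. Micu2 stood above Letm1 and Ppif at 64.1 ± 2.46 FPKM, while Letm1, at 51.2 ± 2.32, and Ppif, at 47.6 ± 5.79, overlapped. Mcu, the pore itself, was below these genes at 10.4 ± 0.571 FPKM in WT and 11.0 ± 1.15 in KO, and Micu3 was lowest at 2.97 ± 0.257 and 4.57 ± 0.254. The ratio of Vdac1 to Mcu FPKM was between 96.0 and 111 in the WT hearts and between 69.0 and 107 in the KO hearts. The length behind the FPKM was shorter than the length column of the table for 7 of the 8 genes. With that column in its place the order in WT was the same, and in KO Ppif stood above Letm1. The WT means of Ppif and Micu2 were then close, at 48.7 and 46.7, so their separation in FPKM depends on the length used.

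**Figure D1:**
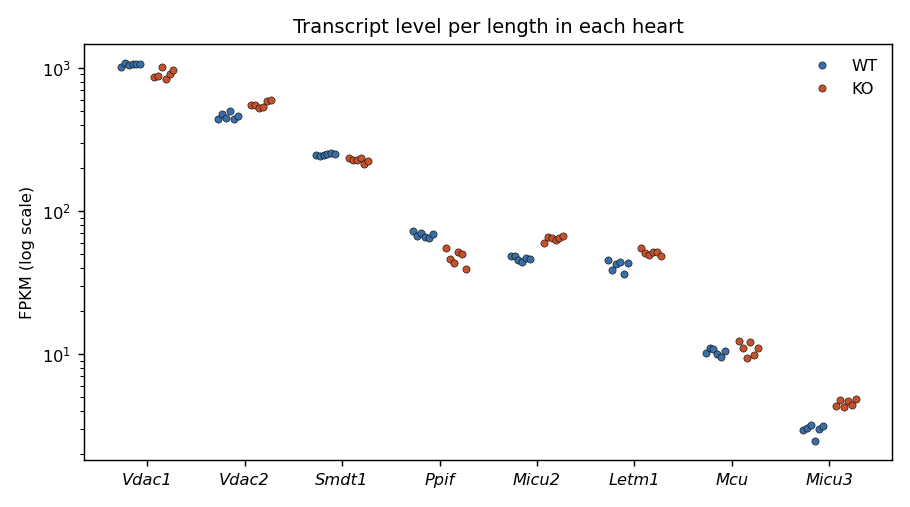
FPKM on a log axis for 8 genes, ordered by their WT mean, with 1 point per heart (6 WT in blue, 6 KO in orange). Vdac1 lies at 835 FPKM or more and Micu3 below 5, and Micu2 and Ppif change places between WT and KO.

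The pore-forming genes of the uniporter were examined next. Mcu (MGP_C57BL6NJ_G0017654, chromosome 10, 60715809 to 60889651, minus strand of the C57BL/6NJ assembly) was at 16.8, 17.4 and 18.9 CPM (lowest, median and highest of 6) in the WT hearts and at 16.7, 19.0 and 20.8 in the KO hearts. The groups overlapped over the whole WT range. The log2 fold change was 0.08 (95% interval -0.07 to 0.22, adjusted p = 0.374 from edgeR), so a rise of more than 0.22 or a fall of more than 0.07 on the log2 scale lies outside the interval. Between 412 and 646 reads were counted on Mcu per library. In WT the SD was 4.7% of the mean, and counting error alone gives 4.7%, whereas in KO the SD was 8.9% beside a counting error of 4.3%. Its paralog Mcub (named Ccdc109b in the table), a subunit that lowers uniporter activity, had 49 to 90 reads per library and was at 2.81 ± 0.584 CPM in WT and 2.25 ± 0.216 in KO. Its log2 fold change of -0.32 (SE 0.16, adjusted p = 0.118) did not pass.

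Smdt1 (MGP_C57BL6NJ_G0022553, chromosome 15, 86093319 to 86105256, plus strand) encodes EMRE, which the channel needs in order to conduct. It was at 119.9, 125 and 131 CPM in the WT hearts and at 105, 114 and 118 in the KO hearts. Each KO heart lay below each WT heart, by a small margin, and KO replicate 5 was the lowest. KO differed from WT by -0.14 on the log2 scale (SE 0.04, adjusted p = 0.00969). Smdt1 is the shortest of the 8, and the call was lost (log2 fold change 0.00, adjusted p = 0.957) once each library's trend on gene length was removed. The span of Smdt1 overlaps Fam109b on the same strand, whose counts were at most 1.34% of those of Smdt1.

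Micu2 and Micu3, which encode calcium-sensing partners of the channel, rose while the pore did not pass the test. Micu2 (MGP_C57BL6NJ_G0021818, chromosome 14, 54698823 to 54797274, minus strand), a gatekeeper that helps to keep the channel closed at low calcium, was at 101, 106 and 110.3 CPM in the WT hearts and at 133, 147 and 155 in the KO hearts. The groups were clearly apart. Its log2 fold change was 0.46 (SE 0.05, adjusted p = 4.96e-07), a rise of 37.3%. Micu3 (MGP_C57BL6NJ_G0034043, chromosome 8, 40604639 to 40681243, plus strand), a paralog best known from brain and muscle that favours calcium uptake, was at 6.60, 7.93 and 8.50 CPM in WT and at 11.3, 11.8 and 13.1 in KO. It showed the largest relative rise of the 8, with a log2 fold change of 0.62 (SE 0.08, adjusted p = 8e-06), although it rests on only 166 to 364 reads per library. Micu3 overlaps Fgf20 and an unnamed row on the other strand, each with at most 11 counts.

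Letm1 (MGP_C57BL6NJ_G0029884, chromosome 5, 33825697 to 33872545, minus strand) was at 79.1, 90.8 and 97.0 CPM in the WT hearts and at 105, 107 and 115 in the KO hearts. The WT hearts were the more variable group, and no KO heart reached down to them. KO differed from WT by 0.29 on the log2 scale (SE 0.05, adjusted p = 0.000262). Its paralog Letm2 went the other way, from 7.61 ± 0.649 to 5.56 ± 0.677 CPM (log2 fold change -0.45, adjusted p = 0.0019), and an overlapping unnamed row held up to 17.4% of the Letm2 count.

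Ppif (MGP_C57BL6NJ_G0021451, chromosome 14, 19199877 to 19206191, plus strand) fell most among the 8. It was at 172, 174 and 189 CPM in the WT hearts and at 104, 124 and 140.4 in the KO hearts. The lowest WT heart stood well above the highest KO heart. KO differed from WT by -0.53 on the log2 scale (SE 0.06, adjusted p = 2.21e-06), a change of -30.6%. The mouse annotation GENCODE M21, made on another assembly, places the antisense gene Ppifos over Ppif, and with the strand setting of the counting not given, reads of the pair cannot be told apart.

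The VDAC paralogs moved in opposite directions. Vdac1 (MGP_C57BL6NJ_G0018676, chromosome 11, 53251195 to 53280754, plus strand), the main isoform in most tissues and the docking site of hexokinase, was at 1033, 1085 and 1118 CPM in the WT hearts and at 826, 902 and 1073 in the KO hearts. KO replicate 3 was the only KO heart inside the WT range. KO differed from WT by -0.21 on the log2 scale (SE 0.06, adjusted p = 0.00909), and -0.26 without KO replicate 3. Vdac2 (MGP_C57BL6NJ_G0021441, chromosome 14, 15159221 to 15173806, plus strand), the isoform that holds BAK at the outer membrane, was at 421, 432 and 482 CPM in WT and at 493, 520.3 and 587 in KO. All KO hearts exceeded all WT hearts, narrowly so against WT replicate 4. KO differed from WT by 0.27 on the log2 scale (SE 0.05, adjusted p = 0.000415). As a share of the Vdac1 and Vdac2 FPKM together, Vdac1 made up 68.0%, 69.6% and 70.8% in the WT hearts (lowest, median and highest) and 60.6%, 61.3% and 66.0% in the KO hearts, the highest being KO replicate 3.

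**Figure D2:**
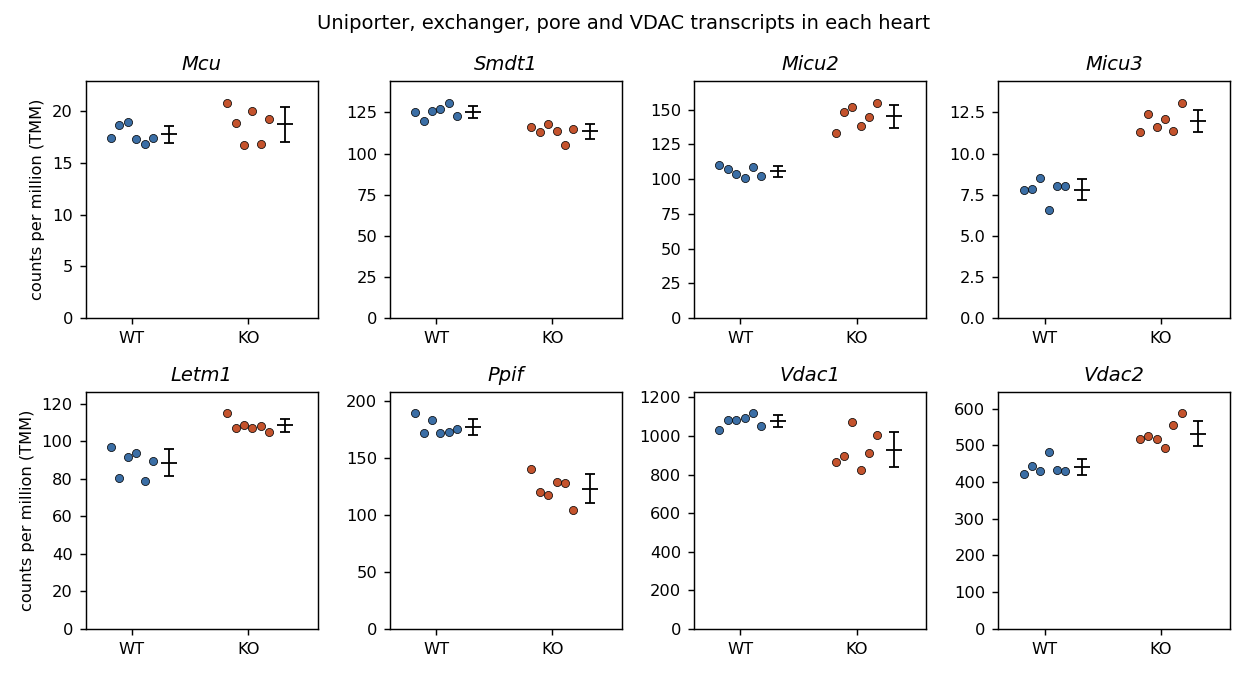
CPM (TMM) of 8 genes in each of 6 WT (blue) and 6 KO (orange) hearts, with the mean and SD as a bar beside the points and axes that start at 0. The groups are apart for Micu2, Micu3, Letm1, Vdac2, Ppif and Smdt1, and they overlap for Mcu and, through KO replicate 3, for Vdac1.

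Read count ratios within each heart were then compared, since a ratio needs no scaling between libraries. Of 6 ratios, all 6 differed between the groups after adjustment over the 6 (two-sided exact permutation test, smallest possible p = 0.00216). All but Vdac2 to Vdac1 have Mcu as the denominator, so they are not independent. Ratios of other gene pairs were not computed, so no background share stands beside this count, while 51.1% of all single rows were called. The ratio of Vdac2 to Vdac1 was 0.387, 0.408 and 0.440 in WT (lowest, median and highest) and 0.482, 0.590 and 0.609 in KO, a difference of 0.49 on the log2 scale (SE 0.06, exact permutation p = 0.00216, adjusted p = 0.00649). No KO heart overlapped the WT hearts, and without KO replicate 3, the lowest KO heart, the difference was 0.54. The ratio of Micu3 to Mcu was 0.382, 0.448 and 0.477 in WT and 0.545, 0.670 and 0.695 in KO, a log2 difference of 0.55 (SE 0.07, exact permutation adjusted p = 0.00649). Micu2 to Mcu rose from a median of 5.87 to 7.95, a log2 difference of 0.38 (SE 0.09, exact permutation adjusted p = 0.00866), with a small overlap. Thus both of these MICU transcripts gained on that of the pore.

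The other ratios fell. Smdt1 to Mcu changed from a median of 7.11 to 5.99, a log2 difference of -0.22 (SE 0.06, exact permutation adjusted p = 0.0162). These genes differ in length, and in the fit with the length trend removed Smdt1 and Mcu had log2 fold changes of 0.00 and 0.08. Vdac1 to Mcu had a log2 difference of -0.29 (SE 0.10, exact permutation adjusted p = 0.0286), and its adjusted p was 0.0545 without WT replicate 4 and 0.0597 without WT replicate 5. Mcub to Mcu had a log2 difference of -0.37 (SE 0.16, exact permutation adjusted p = 0.0455), the least stable of the 6: in 8 of the 12 sets that left out 1 library its adjusted p was above 0.05, reaching 0.0996 without KO replicate 2.

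**Figure D3:**
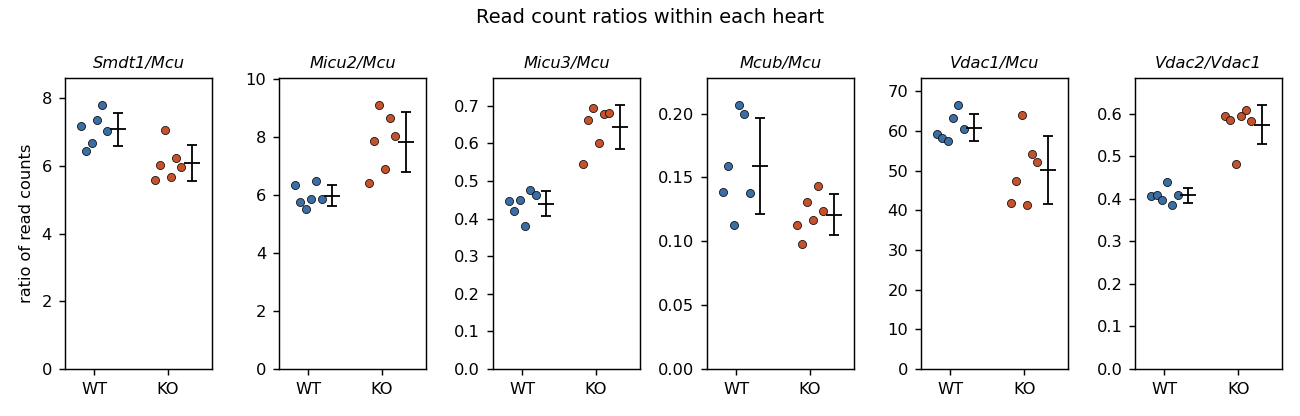
Ratio of read counts within each heart for 6 gene pairs (6 WT in blue, 6 KO in orange, mean and SD beside the points, axes from 0). Vdac2/Vdac1 and Micu3/Mcu do not overlap between the groups, and 1 KO heart (replicate 3) stands below the other KO hearts in Vdac2/Vdac1.

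Promoter sequences are shown for Ppif and Vdac1, which were lower, and for Micu2, the gene with the largest rise among those with a window at hand, as the 250 bases before each RefSeq start on GRCm38.p6, read 5′ to 3′ on the strand of the gene. RefSeq windows were at hand for Mcu, Micu2, Smdt1, Letm1, Ppif and, with a pair of starts, Vdac1. Capitals mark matches, on either strand, to CCGGAAG (an ETS or GABP element), AAGGTCA (an ERR element) or GCGCATGC (the core of an NRF1 site), which the promoters of many mitochondrial genes carry. The window of Smdt1, which was also lower, is not shown and holds no match to any of these.
Ppif, chr14:25693920-25694169, plus strand: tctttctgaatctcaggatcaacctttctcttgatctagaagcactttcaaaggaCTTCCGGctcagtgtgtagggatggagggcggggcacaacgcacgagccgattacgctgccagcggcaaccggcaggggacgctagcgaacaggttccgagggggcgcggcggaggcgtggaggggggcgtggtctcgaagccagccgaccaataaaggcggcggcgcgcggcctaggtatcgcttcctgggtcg
Vdac1, upstream start, chr11:52360601-52360850, plus strand: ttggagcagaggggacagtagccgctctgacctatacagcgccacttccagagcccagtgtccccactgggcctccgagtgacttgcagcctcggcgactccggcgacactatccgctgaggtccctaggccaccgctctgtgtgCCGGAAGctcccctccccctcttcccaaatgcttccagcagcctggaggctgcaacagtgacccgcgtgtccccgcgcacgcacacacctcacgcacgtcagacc
Vdac1, downstream start, chr11:52361347-52361596, plus strand: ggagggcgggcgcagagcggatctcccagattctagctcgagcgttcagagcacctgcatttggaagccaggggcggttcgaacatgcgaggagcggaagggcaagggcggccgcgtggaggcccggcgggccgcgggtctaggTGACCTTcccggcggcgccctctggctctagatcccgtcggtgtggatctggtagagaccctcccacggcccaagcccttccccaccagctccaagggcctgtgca
Micu2, chr14:57999263-57999512, minus strand: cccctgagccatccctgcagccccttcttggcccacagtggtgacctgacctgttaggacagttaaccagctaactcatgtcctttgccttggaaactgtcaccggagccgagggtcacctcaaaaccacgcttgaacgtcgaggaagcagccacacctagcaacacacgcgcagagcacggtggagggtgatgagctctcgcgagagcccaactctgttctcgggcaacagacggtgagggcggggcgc
CCGGAAG was found once before the Ppif start and once before the upstream Vdac1 start, and 6.91% of 32851 promoters of this length hold it. AAGGTCA was found once, before the downstream Vdac1 start (4.08% of all promoters), and GCGCATGC in none of the 7 windows (2.26% of all). Of 6 further motifs searched, the HIF core GCGTG was found in all 7 windows (28.2% of all promoters), GGGCGG, bound by SP and KLF factors, in 5 (32.7%) and CCAAT in 3 (33.8%). The HIF core ACGTG was found in 1 window (16.6% of all), TGACG in 2 (17.8%), and TGACGTCA, the full cyclic AMP response element that contains it, in the Smdt1 window alone (1.55%). The 7 windows had a GC content of 60.4% to 68.4%, beside a median of 52.4% over all promoters. Bases inside the Micu2 window also belong to an annotated non-coding gene on the opposite strand, 3110083C13Rik. These matches are letters in a window and were not tested against the changes.

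Other genes of mitochondrial calcium transport showed no shared direction. Of 15 genes listed for the uniporter complex and matrix calcium, 3 were higher (Letmd1, Afg3l2 and Spg7), 5 were lower (Mcur1, Slc8b1, Letm2, Slc25a23 and Efhd1) and 7 did not pass, together 53.3% called beside 51.1% of all rows, with a median log2 fold change of 0.03. Afg3l2, a subunit of the inner membrane protease that clears unassembled EMRE, rose from 189 ± 12.5 to 293 ± 30.8 CPM (log2 fold change 0.64, SE 0.07, adjusted p = 7.64e-07). Mcur1, a regulator of the uniporter, fell from 101 ± 3.13 to 77.2 ± 3.29 CPM (log2 fold change -0.39, SE 0.04, adjusted p = 1.16e-06). Slc25a23, a calcium-regulated carrier of ATP-magnesium and phosphate, fell from 50.4 ± 2.35 to 41.3 ± 3.05 CPM (log2 fold change -0.28, SE 0.06, adjusted p = 0.000393). Slc8b1, the sodium-calcium exchanger by which calcium leaves the matrix, fell from a mean of 17.5 CPM to one of 14.9 (log2 fold change -0.23, adjusted p = 0.0345) with overlapping groups. With 1 library left out, 5 of 12 fits no longer called it.

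Among the partners of the pore and of VDAC, of 12 genes, 8 were higher (Slc25a5, Tspo, Hk1, Hk2, Bax, Bak1, Bcl2l1 and Mcl1), 1 was lower (Slc25a3, the phosphate carrier) and 3 did not pass. That is 75.0% called beside 51.1% of all rows, of which 25.6% were higher, and the median log2 fold change was 0.32. Hk1, a hexokinase that binds VDAC1, rose from 119 ± 15.2 to 303 ± 45.0 CPM (log2 fold change 1.35, SE 0.10, adjusted p = 3.97e-08). Bak1, the pore-forming death protein that VDAC2 holds, rose from 20.1 ± 1.84 to 35.2 ± 4.93 CPM (log2 fold change 0.81, adjusted p = 1.03e-06), but it overlaps Ggnbp1, which had up to 122.6% of its count. Bcl2l1, a death antagonist, had a log2 fold change of 0.72 (adjusted p = 0.000603). Slc25a5, the adenine nucleotide translocase of dividing cells, rose from 197 ± 16.6 to 322 ± 34.8 CPM (log2 fold change 0.71, adjusted p = 5.52e-07), and GENCODE names a copy of it with which reads could be shared. The muscle isoform Slc25a4 did not pass (log2 fold change -0.13, adjusted p = 0.149).

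Of 13 genes of the contacts between the sarcoplasmic reticulum and mitochondria, 3 were higher (Itpr1, Itpr3 and Mfn2) and 3 were lower, with a median log2 fold change of -0.08. The 46.2% called were near the 51.1% of all rows, so the count is not a result about this list. Itpr3, a calcium release channel, had a log2 fold change of 0.41 (adjusted p = 0.00304). Rmdn3, Pacs2 and Mfn1, which tether or organise the contacts, had log2 fold changes of -0.40, -0.36 and -0.30 (adjusted p of 0.000378, 0.000336 and 8.84e-05), and the span of Rmdn3 is shared in part with another row. Mfn2 went the other way (log2 fold change 0.17, adjusted p = 0.0349). The count of higher genes in this list was 1 without WT replicate 5 and 1 without KO replicate 5.

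The outer membrane in which VDACs reside was taken as the last comparison. Of 21 of its other genes tested, 6 were higher (Tomm22, Tomm70a, Mtx2, Mtch1, Rhot1 and Cyb5b) and 10 lower (Tomm7, Samm50, Mtx1, Mtch2, Rhot2, Miga1, Cpt1b, Acsl1, Maoa and Maob), with a median log2 fold change of -0.07, so that 76.2% were called beside 51.1% of all rows. Maob, a monoamine oxidase, fell from 57.8 ± 2.54 to 9.51 ± 2.87 CPM (log2 fold change -2.60, SE 0.15, adjusted p = 7.93e-09). Acsl1, the acyl-CoA synthetase of fatty acid use, fell from 1153 ± 44.4 to 761 ± 128 CPM (log2 fold change -0.60, adjusted p = 2.02e-05). Cpt1b had a log2 fold change of -0.72 (adjusted p = 0.000107), on a row that overlaps Chkb, whose count was up to 734.6% of its own. Mtch1, a carrier-like protein of this membrane, rose from 123 ± 3.40 to 183 ± 10.9 CPM (log2 fold change 0.58, adjusted p = 3.58e-08).

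**Figure D4:**
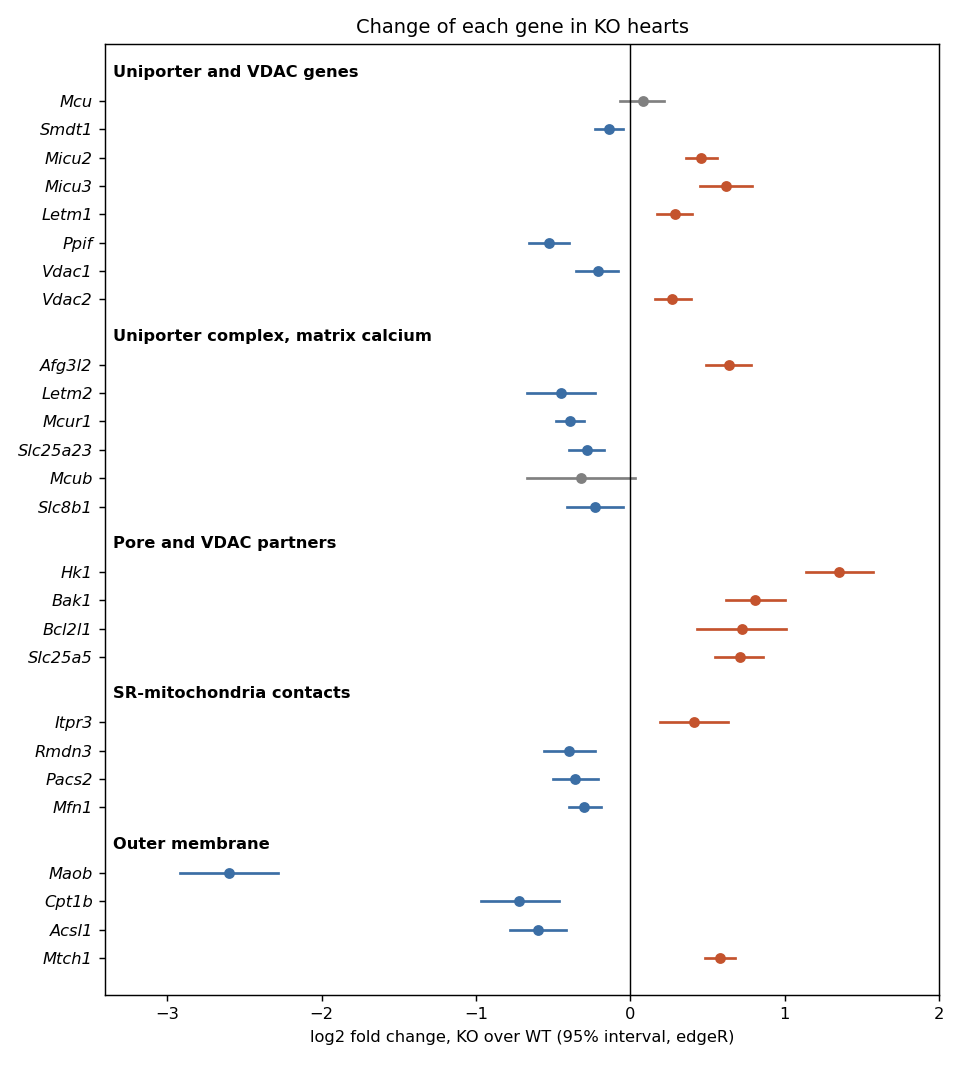
Log2 fold change of KO over WT with its 95% interval (edgeR) for 8 uniporter and VDAC genes and the named genes of 4 other lists; orange marks higher, blue lower and grey not passed at an adjusted p under 0.05. Micu2 and Micu3 lie right of 0 with Hk1 at 1.35, and Ppif, Vdac1 and Mcur1 lie left of it.

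Across the 12 libraries, with each genotype's mean removed from log2 CPM, the genes that followed Mcu most closely among 11167 rows were Sae1, Gch1 and Map1a (Pearson r of 0.89, 0.89 and 0.87). For the other uniporter and VDAC genes r ranged from -0.54 (Vdac1) to 0.27 (Micu3 and Ppif). These values describe 12 libraries that share their normalization. Sae1, Gch1 and Map1a were picked as the highest of 11167 values, and how high the largest would be by chance was not tested. Their r therefore does not show that they vary with Mcu beyond chance. Counting error was as large as the spread of Mcu in WT and below it in KO, as given above.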

How the data were processed

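Poly-A RNA of the ventricular wall of 6 WT and 6 KO mice was sequenced. HISAT2 2.0.5 and mm10 are named in the submitters' processing notes, whereas the row identifiers (MGP_C57BL6NJ) and coordinates are those of the C57BL/6NJ assembly. The authors counted reads per gene with HTSeq and deposited raw counts and, computed from them, FPKM values per library. The strand setting is not given in the sources used here. The authors' own fold changes and p-values were not used.

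The statistics were computed from the counts with edgeR 4.0.16 under R 4.3.3 (rows kept by filterByExpr, TMM, robust quasi-likelihood test, Benjamini-Hochberg adjustment over 17155 rows). Each SE is the fold change over the root of its F value. In simulated counts for 17155 genes with 200 changed 2-fold, 200 were recovered with 9 false calls. Every simulated gene had the same dispersion, and only well-counted genes were changed, by more than any uniporter or VDAC gene here. The simulation therefore does not show how often changes of their size are called. Ratios of counts were compared by two-sided exact permutation tests. The ratio of Vdac3 to Vdac1 was planned and could not be computed, and 1 other planned ratio and some genes of the lists are not reported here and are left out of every list count. The likeness to Mcu used log2(CPM + 1).

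The genes and lists were chosen with earlier results of these data known. The genes named are the uniporter and VDAC genes, Mcub, Mcur1, Slc8b1 and, per list, up to 4 called genes of the largest change averaging 5 CPM or more, and other list members are given as examples chosen after their values were seen. 3 symbols without a row of their own were matched through RefSeq synonyms. Alternatives were other normalizations, tests (DESeq2 1.42.0, limma-voom 3.58.1) and filters, no unannotated loci, removal of the length trend, a replicate block and each library left out. Leaving out KO replicate 3 and WT replicate 6 together was added after the data had been seen. Replicate pairs of one genotype had a chi-square of 7.41 or more for each degree of freedom, and each library was counted as 1 sample. The largest value among WT pairs was 22.63. Pairs with KO replicate 3 ranged from 29.07 to 52.63, and those with KO replicate 6 from 23.86 to 47.88.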

Additional observations from a re-analysis of the deposited data

Results flagged for a closer look

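Values in each genotype were screened for a single heart set apart from its group by Dixon's criterion (95% level). This held for 4 of 66 sets of 6 hearts, and chance gives about 3.3. The Vdac2 to Vdac1 count ratio of KO replicate 3 was 0.482, with the other KO hearts between 0.583 and 0.609. Maob was at 14.9 CPM in the same library, with the other KO hearts between 6.87 and 9.78. Both were nearer to the WT values than those of the other KO hearts. KO replicate 3 also differed from the other KO libraries over many rows, by the chi-square values given above. Smdt1 was at 105 CPM in KO replicate 5, with the other KO hearts between 113 and 118. Sdhaf4 was at 2.73 CPM in KO replicate 1, with the other KO hearts between 2.25 and 2.41.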

How the results depend on the processing

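Of 711 alternative values of 33 single genes and ratios, 686 kept their direction and call, 25 lost the call and 0 reversed. For the uniporter and VDAC genes 183 of 184 did so, and the exception was Smdt1 with the length trend removed (0.00, adjusted p = 0.957 from edgeR), which by its construction takes out a shift tied to gene length. Leaving out 1 library at a time gave log2 fold changes of 0.05 to 0.11 for Mcu, 0.44 to 0.48 for Micu2, 0.57 to 0.64 for Micu3, -0.16 to -0.12 for Smdt1, 0.25 to 0.31 for Letm1, -0.26 to -0.18 for Vdac1, 0.24 to 0.30 for Vdac2 and -0.57 to -0.49 for Ppif.

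The count of lower pore and VDAC partners ranged from 1 to 2 with 1 library left out, being 2 without KO replicate 3, and was 2 without KO replicate 3 and WT replicate 6. The count of higher contact genes ranged from 1 to 3, being 1 without WT or KO replicate 5. With medians in place of means, Mcub/Mcu was -0.30 (exact permutation adjusted p = 0.0693) and Vdac1/Mcu -0.26 (exact permutation adjusted p = 0.0623), and the cause was not tested. With 1 library left out they ranged from -0.47 to -0.29 and from -0.37 to -0.24. The labels do not say whether the replicate numbers pair the hearts. Libraries of the same number were little alike (correlations of deviations from -0.162 to 0.024), and only replicate 3 correlated best with its own number. With a replicate block the edgeR fit called 4123 rows higher and 4110 lower, and the Slc8b1 call was lost (adjusted p = 0.0832). For the ratios, a block leaves an exact sign-flip test of 6 differences whose smallest possible p is 0.0312, before adjustment. That limit alone does not force a miss at 0.05. All 6 missed the threshold after adjustment: 0.55 (Micu3/Mcu), 0.49 (Vdac2/Vdac1), 0.38 (Micu2/Mcu), -0.22 (Smdt1/Mcu), -0.29 (Vdac1/Mcu) and -0.37 (Mcub/Mcu), with sign-flip adjusted p of 0.0625 to 0.0938. Among the uniporter and VDAC genes counting error was largest for Micu3 (7.1% in WT and 5.3% in KO), and in KO it was larger than these for both Mcub (12.4%) and Sdhaf4.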
